A study of Mus musculus with 6 samples.

Results

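The 10 genes of secreted muscle factors followed here were Fgf21, Gdf15, Il6, Il15, Lif, Bdnf, Ccl2, Ccl7, Cxcl1 and Cxcl5. They were taken by name, as every probe set whose platform annotation gave exactly 1 of these 10 symbols. This found 61 probe sets for 10 of the 20416 genes on the array, and no probe set that names a member together with another gene. RNA came from myotubes of C2C12, a line of mouse myoblasts that fuse when serum is low. In the insulin group (3 arrays) the myotubes had been held in 100 nM insulin for 48 h, a regimen the labels describe as making them insulin resistant, and the control group (3 arrays) received no insulin. For both groups the change of medium is given as 24 h. Cells of both groups had grown in 10% fetal bovine serum, were fused in 2% horse serum, were used between days 4 and 7 of fusion, and no genotype or transgene is named for either. All cells are of 1 line, and whether replicates were separate platings is said only by the words biological replicate, so p-values measure the spread between these arrays.

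Myokines are proteins that muscle releases to act on itself or on other organs. FGF21 and GDF15 are stress hormones: their genes are targets of ATF4, the transcription factor of the integrated stress response, and FGF21 is also induced in muscle by insulin through AKT. Interleukin 6 and leukaemia inhibitory factor belong to 1 cytokine family that signals through the receptor gp130 and STAT3. Interleukin 15 is a muscle-derived cytokine that acts on lymphocytes, BDNF is a neurotrophin, and CCL2, CCL7, CXCL1 and CXCL5 are chemokines whose genes NF-kB induces.

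Promoter windows are shown for 4 genes, as the stress hormones moved in opposite directions and Il6 and Cxcl1 are classical NF-kB targets. The windows are the 250 bases before the annotated start, from RefSeq on GRCm38.p6, and the table of windows used here held 6 of the 10 members. Capitals mark matches to TGATGNAA, the core of the composite site bound by ATF4 and C/EBP proteins, or to an NF-kB pattern of 3 G, any 2 bases, 3 T and 2 C, each on either strand and with no overlap between the 2 patterns in these windows. Fgf21 lies on the minus strand (chr7:45615491-45615740), Gdf15 on the minus strand (chr8:70632457-70632706), Il6 on the plus strand (chr5:30012864-30013113) and Cxcl1 on the plus strand (chr5:90890995-90891244).
Fgf21: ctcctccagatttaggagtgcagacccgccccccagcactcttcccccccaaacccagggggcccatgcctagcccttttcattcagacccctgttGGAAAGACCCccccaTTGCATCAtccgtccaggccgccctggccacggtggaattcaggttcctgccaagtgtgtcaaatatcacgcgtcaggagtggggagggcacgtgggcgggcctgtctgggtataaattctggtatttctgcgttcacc
Gdf15: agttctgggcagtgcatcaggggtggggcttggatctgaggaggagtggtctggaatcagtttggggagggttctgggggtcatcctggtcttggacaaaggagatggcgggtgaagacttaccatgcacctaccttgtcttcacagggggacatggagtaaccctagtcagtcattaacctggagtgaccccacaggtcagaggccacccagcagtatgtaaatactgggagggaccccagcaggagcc
Il6: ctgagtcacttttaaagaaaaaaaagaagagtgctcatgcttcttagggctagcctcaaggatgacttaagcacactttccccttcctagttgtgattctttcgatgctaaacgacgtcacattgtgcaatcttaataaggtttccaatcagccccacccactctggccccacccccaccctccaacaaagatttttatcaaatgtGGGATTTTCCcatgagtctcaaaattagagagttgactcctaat
Cxcl1: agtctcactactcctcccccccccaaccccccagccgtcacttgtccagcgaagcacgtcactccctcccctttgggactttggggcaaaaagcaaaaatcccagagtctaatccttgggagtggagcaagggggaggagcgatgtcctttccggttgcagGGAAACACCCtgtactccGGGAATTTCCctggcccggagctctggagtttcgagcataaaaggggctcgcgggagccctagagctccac
The Fgf21 window held 1 match of each pattern, both on the opposite strand, with the ATF4 pattern 139 to 132 bases before the start. Il6 held 1 NF-kB match, 44 to 35 bases before the start, and Cxcl1 held 2. Neither of the 2 annotated Gdf15 windows matched, nor did the windows of Lif and Bdnf, which says only that these letters were not found there. Of all 32851 promoter windows of this length, 3.45% held the ATF4 pattern and 1.41% the NF-kB pattern.

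Values are log2 intensities made by RMA, with a gene's value on an array being the median of its probe sets. Genes with a mean under the 30th percentile (7.05) were not tested, which left 14291 genes and 9 of the 10 members, Il6 being too dim. Among those 9, limma called Gdf15 higher and Fgf21 lower at a Benjamini-Hochberg adjusted p of 0.05, while 7 did not pass. Over all tested genes, 9.56% were called higher and 6.35% lower, so 1 of 9 members in each direction is near the background. The insulin arrays lay wholly above the controls for 1 tested member (20.0% of all tested genes) and wholly below for 3 (15.7%), namely Fgf21, Il15 and Lif.

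**Figure D1:**
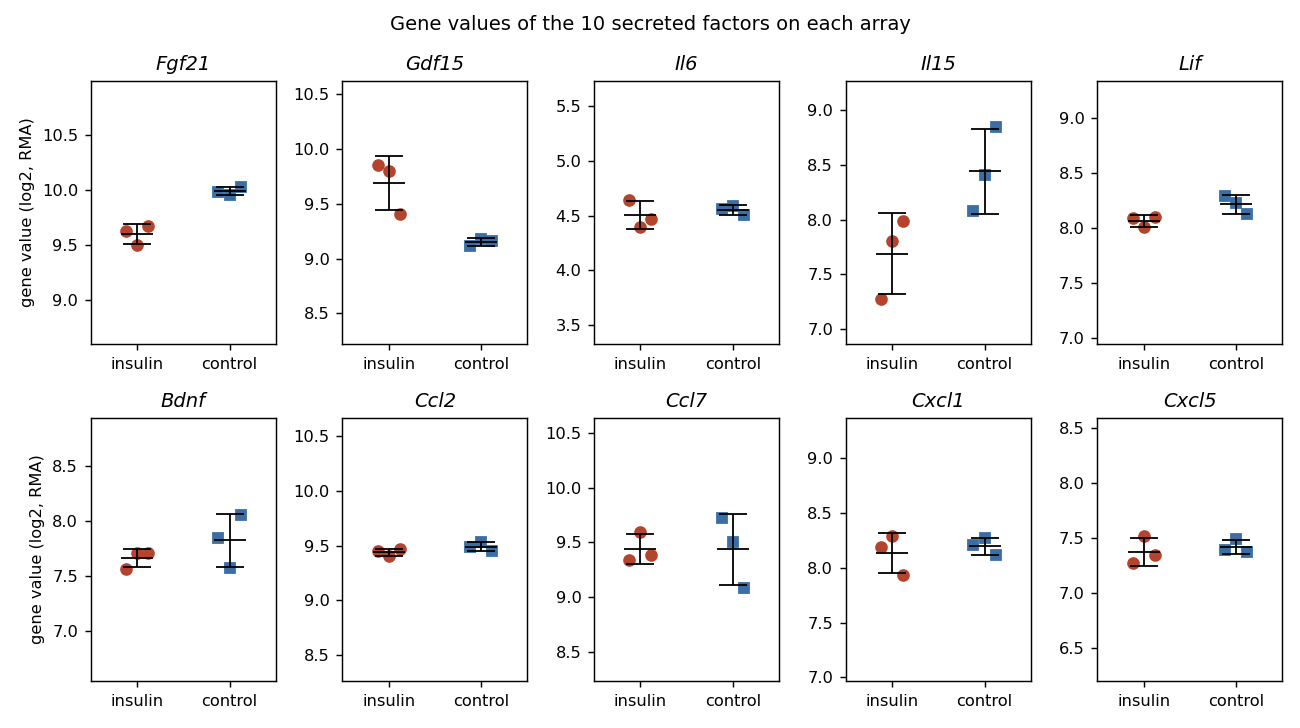
Gene values (log2, RMA) of the 10 secreted factors, with insulin arrays as circles on the left and control arrays as squares on the right of each panel; bars are the mean and SD of 3 arrays, and every panel spans the same range of log2 units. Insulin arrays lie below controls for Fgf21, Il15 and Lif, above them for Gdf15, and among them for the other 6 genes.

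Fgf21, the fasting and stress hormone, was lower after insulin. Its values were 9.62, 9.50 and 9.67 on the insulin arrays, against 9.98, 9.96 and 10.03 on the control arrays. All 3 insulin arrays lay below all controls, and the gap between the groups exceeded the range within either. The gene fell by 0.39 ± 0.07 on the log2 scale (SE), with limma's adjusted p = 0.00928, and the control level was 1.31 times the insulin level. Of its 5 probe sets, 4 had lower insulin means, and 3 of the 4 tested were called lower. The gene's value was that of 10563346 on every array. The call of this probe set (limma adjusted p = 0.0448 over probe sets) thus rested on the same values as the gene's call. No probe set of any member was called lower without insulin 1, without insulin 2, without insulin 3 or without control 2, so these 3 calls were lost in each of those fits. The brightest, 10563348, read 10.63, 10.59 and 10.47 with insulin, against 11.22, 11.03 and 11.07 without. Probe set 10563345 differed by 0.01, with a 95% confidence interval of -0.47 to 0.50. The call of the gene value held in all 16 alternative settings, with changes of -0.54 to -0.34 and adjusted p of 0.00095 to 0.0427.

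Gdf15, the hormone that suppresses appetite through the hindbrain receptor GFRAL, was higher. Its values were 9.86, 9.80 and 9.41 on the insulin arrays, against 9.11, 9.18 and 9.16 on the control arrays. The controls were close together, and insulin 3 was the lowest of the treated arrays yet above every control. Gdf15 rose by 0.54 ± 0.12 (SE), or 1.45-fold, with limma's adjusted p = 0.019. Its brightest probe set, 10579332, read 10.39, 10.12 and 10.19 with insulin, against 9.11, 9.18 and 9.18 without, a rise of 1.08 (2.11-fold, limma adjusted p = 0.00546 over probe sets). The second, 10579333, differed by 0.52 without passing (adjusted p = 0.0718), and the dim 10579334 by 0.30 with overlapping arrays. The gene's value was that of 10579333 on the insulin arrays and control 3, and that of 10579332 on control 1 and control 2. The gene's call was lost without insulin 1 (0.45, limma adjusted p = 0.0675), insulin 2 (0.48, 0.0752) or control 2 (0.55, 0.0552), and kept in the other 13 alternatives (adjusted p from 0.00017).

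**Figure D2:**
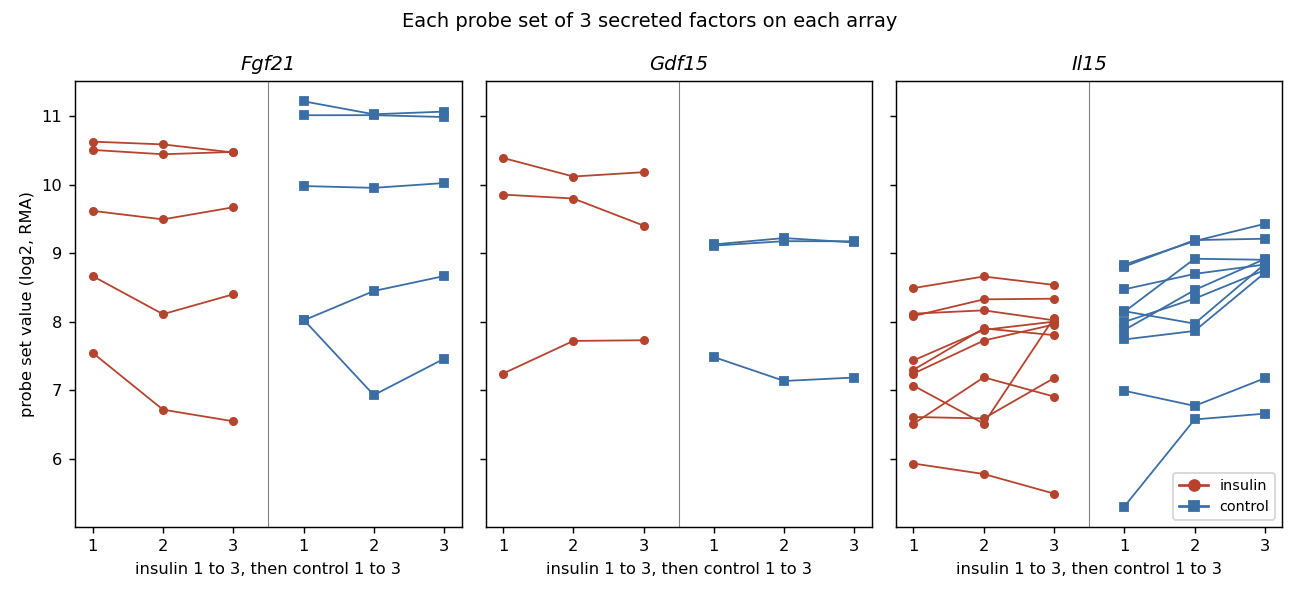
Values (log2, RMA) of each probe set of Fgf21, Gdf15 and Il15 on the insulin arrays (circles, left) and control arrays (squares, right); a line only joins the values of 1 probe set, and replicates have no order. The upper 3 Fgf21 probe sets lie lower on insulin arrays than on controls, the upper 2 of Gdf15 lie higher, and all 10 of Il15 have lower insulin means.

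Transcripts that regulate these 2 hormones were followed as a list of 37 factors, of which 31 were tested. Of these 8 rose, 4 fell and 19 did not pass, against 9.56% higher and 6.35% lower over all tested genes. The median difference was 0.06, against -0.0028 for all tested genes. Trib3, a pseudokinase and ATF4 target, rose by 1.81 ± 0.06 (SE) and Ddit3, which encodes the stress factor CHOP, by 1.83 ± 0.11. Ppp1r15a (Myd116 on the array), which encodes the GADD34 subunit that ends the stress response, rose by 0.83 ± 0.10. Atf4 itself rose by 0.35 ± 0.08 and Asns, an ATF4 target outside the list, by 0.45 ± 0.06. The adjusted p of these 5 genes, from limma, lay between 8.75e-06 and 0.0195. Gdf15 shared the direction of these 5 transcripts and Fgf21 did not. Named after their values were seen, the 4 listed factors that fell were Rora (-0.65), Foxo3 (-0.35), Nr4a1 (-0.40) and Egr1 (-0.38). Their limma adjusted p lay from 0.0123 to 0.0376. The other listed factors that rose, also named afterwards, were Pparg (0.65), Atf3 (0.75), Tfe3 (Tcfe3 on the array, 0.38) and Creb3l1 (0.24). Their limma adjusted p lay from 0.00316 to 0.0419. The list covers regulators of either hormone, and their part in the changes of Fgf21 and Gdf15 was not tested.

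Il15 showed the widest difference of the 10 when genes were read as the median of their probe sets, but its arrays were spread and it did not pass. Read from the brightest probe set alone, Gdf15 differed more (1.08, against -0.58 for Il15), and likewise with the brighter probe sets (0.80, against -0.68 for Il15). The insulin arrays read 7.27, 7.81 and 7.98, against 8.07, 8.40 and 8.84 for the controls. The groups did not overlap, though insulin 3 lay just under control 1. The difference was -0.75 ± 0.22 (SE), with a 95% confidence interval of -1.27 to -0.23 and limma's adjusted p = 0.0581, and the control level was 1.68 times the insulin level. Only 1.30% of all tested genes differed by as much. All 10 probe sets had lower insulin means, with differences of -1.24 to -0.19. The widest of these, that of 10579963, came from a probe set too dim to test. The 2 called lower were 10579959 (-0.57, limma adjusted p = 0.0378) and 10579960 (-0.82, 0.0261). Probe set 10579960 read 8.09, 8.33 and 8.34 with insulin, against 8.81, 9.19 and 9.21 without. In 8 of 15 alternatives the gene passed, among them its brightest probe set (-0.58, limma adjusted p = 0.0469), the mean of its probe sets (-0.73, 0.0124) and the fit without control 1 (-0.93, 0.0318). The adjusted p over the alternatives ran from 0.00717 to 0.159.

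**Figure D3:**
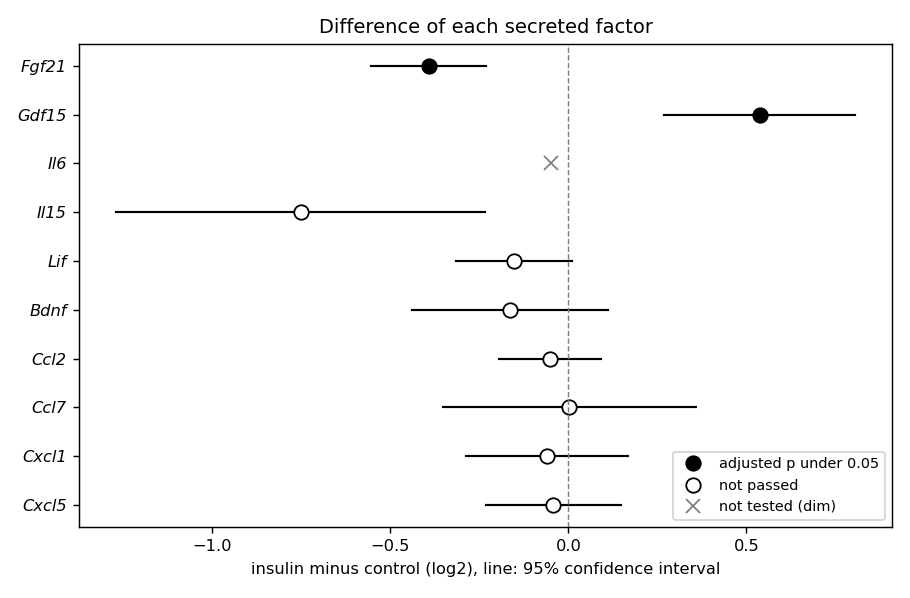
Difference between insulin and control (log2, horizontal axis) for each secreted factor, with the 95% confidence interval of the limma fit; filled circles passed an adjusted p of 0.05, open circles did not, and the cross is Il6, which was too dim to test. The intervals of Fgf21 and Il15 lie below 0 and that of Gdf15 above 0, while those of the other 6 tested genes include 0.

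The gp130 cytokines Il6 and Lif gave no call. Il6 read 4.65, 4.40 and 4.47 on the insulin arrays, against 4.56, 4.59 and 4.50 on the controls, and its 6 probe sets all had means of 6.69 or less. Whether such values lie above background was not judged, and only their overlap is given. Lif read 8.09, 8.01 and 8.10 with insulin, against 8.30, 8.23 and 8.13 without. Its groups did not overlap, although insulin 3 lay just under control 3. The difference was -0.15 with a 95% confidence interval of -0.31 to 0.01 (limma adjusted p = 0.194). It passed only with array quality weights (-0.16, 0.0371). The Lif gene value was that of 10373922 on every array. The groups overlapped in all other Lif probe sets, and 2 of the 5 had higher insulin means.

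Among transcripts of the pathway downstream of these cytokines, 1 of 27 tested JAK-STAT3 genes rose, 4 fell and 22 did not pass, with a median of -0.10. Counts of this list and of the receptor list below are to be read against 9.56% higher and 6.35% lower over all tested genes. Cebpd, Junb and Pim1, all genes that STAT3 induces, fell by 0.29 ± 0.06, 0.33 ± 0.08 and 0.33 ± 0.08 (SE, limma adjusted p from 0.0195 to 0.0246). Socs3, the feedback inhibitor of gp130, differed by -0.25 without passing (adjusted p = 0.0665), and so did Il6st, which encodes gp130 (-0.22, 0.067). A further list held receptors of the 10 factors and some related receptors. Of its 15 tested genes, 1 rose, 4 fell and 10 did not pass, with a median of -0.12. With each gene's brightest probe set 2 were called, both lower. Sort1, encoding sortilin, which sorts BDNF, fell by 0.43 ± 0.07 (SE, limma adjusted p = 0.00586). Ackr4 (Ccrl1 on the array), a scavenger of chemokines outside the 10, fell by 0.37 ± 0.10 and the FGF receptor gene Fgfr3 by 0.33 ± 0.09. Named after their values were seen, Lifr, the LIF receptor gene, fell by 0.30 ± 0.08 (adjusted p = 0.0468) and Il2rg, the chain that the IL-15 receptor shares with other interleukin receptors, rose by 0.46 ± 0.13 (adjusted p = 0.0451). Fgfr1, an FGF21 receptor gene, differed by -0.20 and did not pass (0.251). Klb and Gfral, also on the receptor list, were below the filter and not tested.

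Bdnf values overlapped. The insulin arrays read 7.57, 7.71 and 7.71, against 7.85, 7.57 and 8.06 for the controls, a difference of -0.16 with a 95% confidence interval of -0.44 to 0.11 (limma adjusted p = 0.411). The gene value of control 3 was that of 1 of 11 probe sets, 10474408, which read 8.06 there and 6.07 to 6.61 on the other 5 arrays. None of the 6 Bdnf probe sets that were tested passed, and the brightest one, 10474409, differed by 0.02.

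The 4 chemokine members did not pass either. Ccl2, which attracts monocytes, read 9.45, 9.40 and 9.47 with insulin, against 9.48, 9.54 and 9.45 without. Its interval was narrow, at -0.19 to 0.09 around -0.05 (95% confidence, limma adjusted p = 0.634). Ccl7, its neighbour on chromosome 11 with the same kind of target cell, read 9.34, 9.59 and 9.38, against 9.72, 9.50 and 9.08, so that the controls spread more widely than the insulin arrays. The difference was 0.003 with an interval of -0.35 to 0.36 (adjusted p = 0.994). The Ccl7 gene value was that of 10379519 on every array. The controls spread more widely in 10379521 and 10379523 too, but not in 10379520 or 10379522.

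Cxcl1, a neutrophil attractant, read 8.19, 8.29 and 7.94 with insulin, against 8.21, 8.27 and 8.12 without (-0.06, 95% confidence interval -0.29 to 0.17, limma adjusted p = 0.739). Its brightest probe set, 10523152, read 9.86, 9.96 and 9.88 with insulin, against 10.24, 10.18 and 10.09 without, a non-overlapping difference of -0.27. That difference passed when each gene was represented by its brightest probe set (limma adjusted p = 0.0443) but not in the fit over all probe sets (0.108). Cxcl5, the other neutrophil attractant, read 7.27, 7.52 and 7.34 with insulin, against 7.39, 7.49 and 7.37 without, with a difference of -0.04 (interval -0.23 to 0.15, adjusted p = 0.781). Its probe sets did not go 1 way, as 10523127 differed by 0.19 with the insulin arrays above the controls and 10523123 by -0.32 with overlap.

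**Figure D4:**
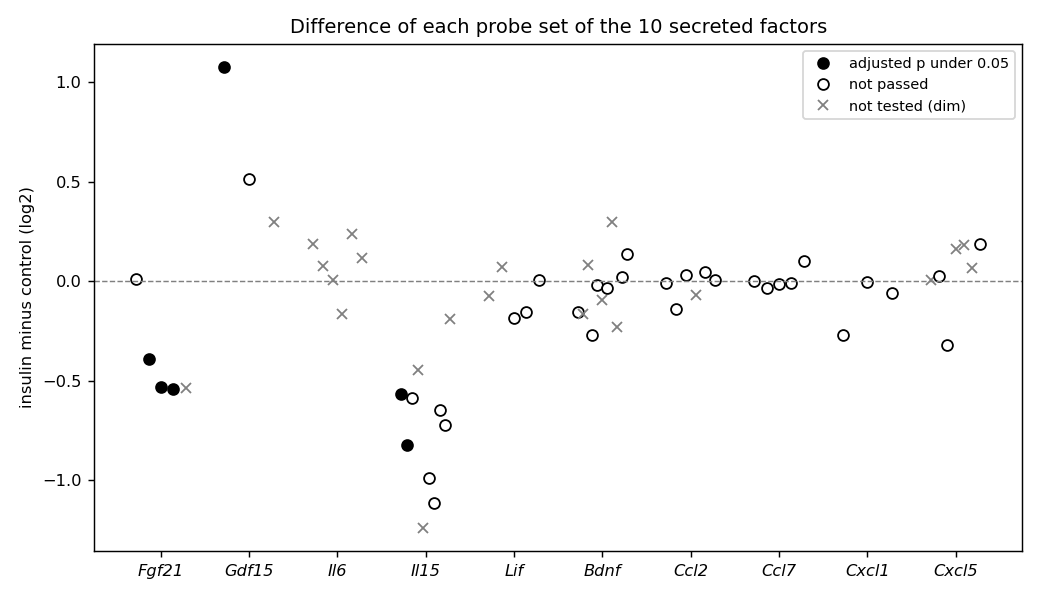
Difference between insulin and control (log2, vertical axis) for each of the 61 probe sets of the 10 secreted factors; filled circles passed an adjusted p of 0.05 over all tested probe sets, open circles did not, and crosses were too dim to test. The 6 filled circles belong to Fgf21 (3), Gdf15 (1) and Il15 (2), and all probe sets of the 4 chemokines lie between -0.32 and 0.19.

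By probe set, 38 of the 61 were above the 30th percentile of all probe sets (7.57), and 1 was called higher and 5 lower. Over all tested probe sets 3.95% were called higher and 1.71% lower. As probe sets of 1 gene share its transcripts, these are not separate findings. A single probe set of the members was called, in the higher direction, without insulin 1, without insulin 2, without insulin 3 or without control 2, and 3 were called without control 3, 1 higher and 2 lower.

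The shares called among other chemokines and NF-kB genes are to be read against the 9.56% of all tested genes called higher and the 6.35% called lower. Of 18 tested chemokines outside the 10 none rose, 2 fell and 16 did not pass, with a median of -0.05. Those that fell were Cxcl12, the ligand of CXCR4, by 0.31 ± 0.08 and Ccl11 (eotaxin) by 0.30 ± 0.08 (SE, limma adjusted p = 0.0347 and 0.0453), and Ccl9 differed by -0.32 without passing (0.0714). Of 34 tested NF-kB factors and feedback genes 31 did not pass and the other 3 were all higher, with a median of -0.03. Ptgs2, encoding cyclooxygenase-2, rose by 0.95 ± 0.08, the adaptor gene Myd88 by 0.45 ± 0.08 and Rel by 0.36 ± 0.07 (adjusted p from 0.000517 to 0.0148). Nfkbia, the feedback inhibitor that NF-kB induces, differed by -0.03 (limma adjusted p = 0.763). With brightest probe sets, 3 genes of that list were called higher and 3 lower.

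Among 35 tested secreted muscle factors outside the 10, 6 rose, 7 fell and 22 did not pass, with a median of -0.07. Over all tested genes 9.56% were called higher and 6.35% lower. Nampt, an NAD-synthesis enzyme that is also released, rose by 0.66 ± 0.07 (SE), while the proteoglycan gene Dcn, which is also one of the fibroblast markers, fell by 0.57 ± 0.07 and the growth factor gene Bmp4 by 0.64 ± 0.07 (limma adjusted p from 0.00174 to 0.00191). That list held calls both ways, as the 10 members did.

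**Figure D5:**
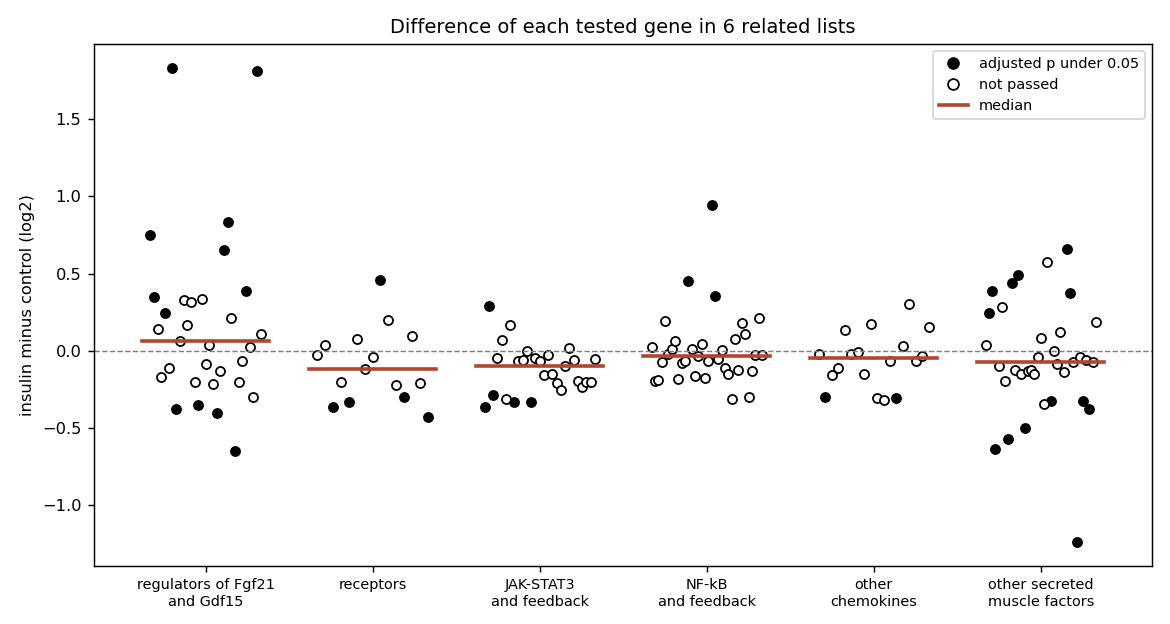
Difference between insulin and control (log2, vertical axis) for every tested gene of 6 lists related to the secreted factors; filled circles passed an adjusted p of 0.05, open circles did not, and the red line is the list's median. Medians lie between -0.12 and 0.06, and the highest points are Ddit3 and Trib3 in the list of hormone regulators.

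The cells' labelled type was checked on marker lists. All 14 myotube markers were above the filter, with gene means of 8.48 to 14.11, and their mean level ran from 12.62 to 12.64 on insulin arrays and from 12.83 to 12.90 on controls, with 4 called lower and none higher. Of 9 macrophage and leukocyte markers 7 were below the filter, Ptprc, Adgre1 and Lyz2 among them, and their mean level was 6.70 to 6.85 with insulin and 6.72 to 6.82 without. Fibroblast markers averaged 8.81 to 8.88 with insulin and 8.95 to 9.07 without, with 2 of 6 tested genes lower. Of that list Lum and Fap were below the filter, and Thy1 differed by 0.27 without passing (limma adjusted p = 0.0695). Whether fibroblasts were present was not tested. The 7 markers of undifferentiated myoblasts averaged 10.63 to 10.72 with insulin and 10.64 to 10.79 without, with 1 called each way. Endothelial markers averaged 6.70 to 6.76 with insulin and 6.68 to 6.81 without, and adipocyte markers 7.17 to 7.28 with insulin and 7.10 to 7.33 without, with 1 called higher. The myotube and fibroblast lists thus moved with the groups, and their part in the differences of Fgf21, Gdf15 and Il15 was not tested. Fewer cells of a type and less RNA per cell cannot be told apart in such samples.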

How the data were processed

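Values are log2 intensities that the authors deposited for every probe set after RMA, per the submitters' processing notes, with no version given. RMA corrects background, quantile-normalizes arrays and summarises probes. No source used here names the log base, which was taken as 2 from the range of 3.15 to 14.55. RMA equalizes arrays, so differences are relative to other transcripts. For each array 25 ng of RNA was amplified first, per the labels' protocols. Detection calls and scan batches were not analysed here, and 6 arrays limit the precision.

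Of 241576 probe sets, 212097 had 1 gene symbol, 4475 several and 25004 none. Gene values (medians of probe sets) and probe sets were each fitted across all features with limma 3.58.1 in R 4.3.3 (lmFit and eBayes, two-sided, no covariates, Benjamini-Hochberg), leaving out means under the 30th percentile. The fit was run on simulated data drawn independently for each gene and array. Such data lack deviations shared across an array, so they do not show how the fit performs on these arrays. The 10 members, 7 related gene lists, 6 marker lists and the naming rule (all members, the 3 smallest unadjusted p of each related list, and Atf4, Ddit3, Trib3, Asns, Socs3, Nfkbia, Il6st and Fgfr1) were chosen with earlier results of these data known. List symbols were matched after updating old ones through RefSeq names. Alternatives are given in the closing section. Some genes of the lists were not analysed here. Same-numbered arrays of the groups were not treated as pairs.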

Additional observations from a re-analysis of the deposited data

How the results depend on the processing

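The 16 alternatives were 10 other settings and 6 fits without 1 array. The number of genes called, 2274, was 5007 with array quality weights, 3436 with the mean of probe sets and 1045 to 2449 when 1 array was left out. Members called, 2 as reported, were 4 with weights (Il15 and Lif added), 4 with the brightest probe set (Il15 and Cxcl1 added) and 1 to 3 without 1 array. Probe sets called, 8410, were 2738 with no filter, 2364 with the replicate block and 597 to 6006 without 1 array, and the count among the probe sets of the members, 6 as reported, was 2 with no filter, 5 with the replicate block and 1 to 6 without 1 array. The sign of uncalled members turned in some settings. Ccl7 lay at -0.0255 after repeated quantile normalization, -0.0225 after centring, -0.0379 with weights, -0.0065 with brighter probe sets and -0.17 to 0.15 without 1 array. Bdnf lay at 0.0482 with weights and 0.022 with the brightest probe set, Ccl2 at 0.033 with the brightest probe set, Lif at 0.0078 with brighter probe sets, and Cxcl5 at 0.0458 with the mean of probe sets. Without 1 array, Cxcl5 ran from -0.1121 to 0.0118 and Cxcl1 from -0.1365 to 0.0408. The cause of these changes was not tested. Control arrays were less alike than insulin arrays. Over tested genes, the SD of the difference between 2 arrays was 0.18 to 0.25 among controls and 0.16 among insulin arrays. It was 0.26 to 0.34 between the groups. Among controls it was widest for control 1 against control 3. The replicate numbers gave no consistent pairing: deviations of same-numbered arrays correlated at 0.02, 0.19 and -0.0004. Those of different-numbered arrays correlated at -0.10 to 0.07, so only replicate 2 stood above them. With the replicate block 1970 genes and 3 members were called, Il15 being added (adjusted p = 0.00717), the receptor, chemokine, JAK-STAT3 and mRNA decay lists had 2, 0, 3 and 3 calls in place of 5, 2, 5 and 6, and no other call of a member changed. Signal over background was not judged, so nothing can be said of Il6 beyond its overlap.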

Other observations

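A list of 25 genes for mRNA decay and for the processing or sorting of secreted proteins had 21 tested members. Of these 2 rose, 4 fell and 15 did not pass (median -0.06), against 9.56% higher and 6.35% lower over all tested genes. Zfp36l2, encoding a protein that binds AU-rich elements and speeds mRNA decay, rose by 0.65 ± 0.09 on the log2 scale (SE), at 10.84 ± 0.12 on insulin arrays and 10.19 ± 0.10 on controls (SD, n = 3 each, limma adjusted p = 0.00281). Mmp2, a secreted gelatinase, fell by 0.47 ± 0.06, at 9.60 ± 0.06 with insulin and 10.06 ± 0.02 without (limma adjusted p = 0.00316). Sort1, which stands on the receptor list too, came next by p. Zfp36l1, a relative of Zfp36l2 named after its value was seen, fell by 0.59 ± 0.15 (limma adjusted p = 0.032). When every gene was read from its brightest probe set, 1 gene of the list was called higher and 2 lower.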
